A study of Mus musculus with 15 samples.

Results

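Liver was compared with heart in 4 wild-type mice, males of strain C57BL/6J-Tyr aged 17 weeks, each of which gave both organs. The arrays were chosen by their tissue and genotype labels, and they were 8 of the 15 in the series, 4 wild-type livers and 4 wild-type hearts. The other 7 arrays, 3 livers and 4 hearts of mice of the same strain, sex and age that were homozygous for a mutant allele of Abcb5, an ABC transporter gene, were used only as independent mice for the same comparison. Total RNA had been labelled and hybridised to one-colour Illumina bead arrays with 25697 probes. The labels do not say which parts of the heart were taken or whether the organs were flushed of blood.

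Liver and heart are both organs of high metabolic rate with opposite roles in whole-body fuel use. Hepatocytes make most plasma proteins, clear nitrogen as urea, make bile acids, modify drugs and release glucose and ketone bodies. Cardiac muscle cells take up fatty acids and ketone bodies, burn them in densely packed mitochondria, and spend the energy on calcium cycling and on the sliding of myosin over actin.

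The authors had scaled the tissues separately. Wild-type livers had median intensities of 113.105 to 113.111 and wild-type hearts of 8.05 to 8.08, so intensities as given were not tested between the tissues. Where sums of marker intensities over background are printed below for both tissues, their scales are not shared, and the sums give no ratio between tissues. The probes of each array were ranked instead, with position 1 for the brightest, and a position describes a probe among the probes of its own array. Probes differ in how strongly they bind, so positions were compared between tissues for the same probe and not used to order genes by abundance. Background was estimated from the low values of each array, and between 47.3% and 47.4% of probes exceeded it on a liver array against 66.9% to 67.0% on a heart array. Ranks beyond position 12146, the smallest number of probes above background on any of the 8 arrays, were tied at that floor. The ranks were turned into normal scores, which ran from 0.0686 at the floor to 4.06 for the brightest probe. A difference in score is liver minus heart, with its standard error, over 4 and 4 arrays. Where a tissue lay wholly beyond the floor, the difference is a lower bound on its size. Tied ranks have no spread, so the standard error and p of such a difference come out too small.

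Replicates ranked the probes alike. Spearman's correlation between arrays, over all probes, was between 0.847 and 0.863 among the livers, and between 0.942 and 0.946 among wild-type hearts 1, 2 and 3. Wild-type heart 4 correlated with the other hearts at 0.904 to 0.908 and reached an intensity of 55709.9, where the other wild-type hearts reached between 27839.7 and 29793.5 at most. Between a liver and a heart the correlation was between 0.689 and 0.706. How far separate handling and scaling of the tissues entered these values cannot be told apart from the tissues themselves.

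The labels were checked with marker genes. Apoa1, the main protein of high-density lipoprotein, was at positions 7, 14, 4 and 8 of livers 1 to 4 and at positions 16675, 21649, 19010 and 15975 of hearts 1 to 4. Ttr, the plasma carrier of thyroid hormone and retinol-binding protein, was at positions 26, 29, 14 and 22 in the livers and at 12292, 12101, 10275 and 15535 in the hearts. Myl2, the regulatory light chain of ventricular myosin, was at positions 3, 2, 7 and 2 in the hearts and at 22971, 21243, 16638 and 16405 in the livers. The tissues did not overlap for any of the 3 genes, and Myl2 was above background on 0 of 4 livers. The probes of 7 hepatocyte markers summed to between 47854.1 and 49443 intensity units over background on a liver and to between 11.8 and 24.7 on a heart. For 7 cardiomyocyte markers the sums were between 4.70 and 8.14 on a liver and between 96370.6 and 172032 on a heart, and Myh6, Tnni3, Actc1, Myl2, Myl3 and Ryr2 were above background on no liver.

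Of 16746 probes above background on at least 3 arrays of either tissue, 1308 (7.81%) ranked higher in liver and 1519 (9.07%) higher in heart, at a limma Benjamini-Hochberg adjusted p below 0.05 and a difference of at least 0.5 score units. Together that was 16.9% of the probes tested. Of the 2827 probes called 46.3% were liver calls, and with no floor on the ranks the liver part was 36.1%. By the adjusted p alone 9540 probes passed, 4289 toward liver and 5251 toward heart, so the size limit and not the test set the number of calls. The ranks of the tissues did not overlap for 9092 of the tested probes (54.3%), among them 1306 of the 1308 liver calls and 1519 of the 1519 heart calls. Of the probes called, 1609 (56.9%) were above background on all 8 arrays, so they differed in level rather than in presence. Among the 16746 probes tested 8975 were above background on all 8 arrays, a similar share. In bulk tissue a larger number of cells of a type and more of the RNA in each cell cannot be told apart.

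**Figure D1:**
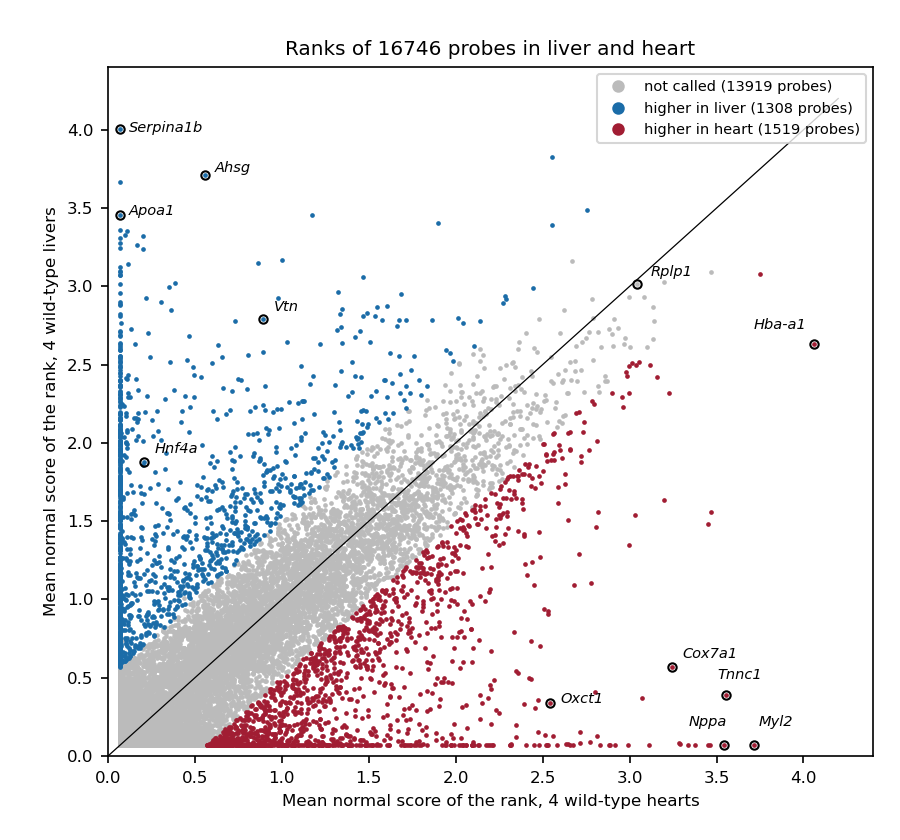
Mean normal score of the within-array rank of each tested probe in the 4 wild-type hearts (horizontal axis, score units) and in the 4 wild-type livers (vertical axis, score units), with called probes in colour, 12 genes circled and equal scores marked by the diagonal line. The 1308 probes higher in liver lie above the diagonal and the 1519 higher in heart below it, with a row of points along each axis at the rank floor of the other tissue.

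With 1 probe for each gene, 956 genes ranked higher in liver and 1145 higher in heart, which was 5.76% and 6.9% of the 16593 genes named on the array, or 8.42% and 10.1% of the 11351 tested. Those shares are the background for the counts of gene lists below, and the median difference over all named genes was 0.00. Of the 681 called genes with several tested probes, 301 had the same call from every probe. Genes named below whose call was not shared by every tested probe include Myocd, called on 1 of 3. Clec4f, Uox and Lyz2 were called on 1 of 2 tested probes, and Kcnh2, Per2, Smtn, C9, Acadl and Adssl1 on 2 of 3. Tubb2b, a tubulin gene, was the 1 gene with probes called in opposite directions.

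The largest liver differences belonged to secreted proteins. Serpina1b, which encodes a form of the protease inhibitor alpha-1-antitrypsin, was at positions 1, 2, 1 and 1 in the livers and at 23980, 16971, 19895 and 21591 in the hearts. Its intensity was 20700, 18120, 20420 and 20750 on the liver arrays. The difference in score was 3.94 ± 0.0543 (adjusted p = 4.02e-09). Its neighbours Serpina1e, Serpina1c and Serpina1d followed at 3.60, 3.23 and 3.18. The paralogs are near-identical in sequence, so their probes may read each other's transcripts, and their separate positions are uncertain. The other genes among the 12 largest were Apoa1 (3.38 ± 0.0696), Apoc3, an inhibitor of lipoprotein lipase (3.24 ± 0.0563), the heme carrier Hpx (3.21 ± 0.0507), Ahsg (3.16 ± 0.0272), Apoc1 (3.12 ± 0.102), Apoa2 (3.10 ± 0.0478), the fibrinogen alpha chain gene Fga (3.06 ± 0.0199) and Kng1, the source of bradykinin (3.03 ± 0.128). Ahsg, a plasma inhibitor of calcification, held position 3 in all 4 livers and positions 7747, 6738, 7825 and 7465 in the hearts, above background in each.

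The 12 largest heart differences held genes of the sarcomere, of energy supply and of a peptide hormone. The difference was -3.65 ± 0.0807 for Myl2. Nppa, the atrial natriuretic peptide gene, was at positions 5, 6, 5 and 6 in the hearts and at 12895, 15352, 16907 and 16055 in the livers, a difference of -3.47 ± 0.0145 (adjusted p = 2.21e-11). Actc1, cardiac actin, was at 11, 11, 11 and 12 in the hearts and at 24849, 21568, 21806 and 20871 in the livers (-3.27 ± 0.00666). The spread among hearts was thus a single position for Nppa and for Actc1. The other genes among the 12 largest were the myosin light chain gene Myl3 (-3.40), the muscle forms of cytochrome oxidase subunits Cox6a2 (-3.38) and Cox8b (-2.82), the myosin heavy chain gene Myh6 (-3.31), myoglobin, Mb (-3.21), the fatty acid carrier Fabp3 (-3.20), cardiac troponin C, Tnnc1 (-3.17), mitochondrial creatine kinase, Ckmt2 (-3.04), and the titin cap gene Tcap (-2.82). All but Tnnc1 were above background on at most 1 liver, and Tnnc1 was at 8447, 8792, 8493 and 10152 there.

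**Figure D2:**
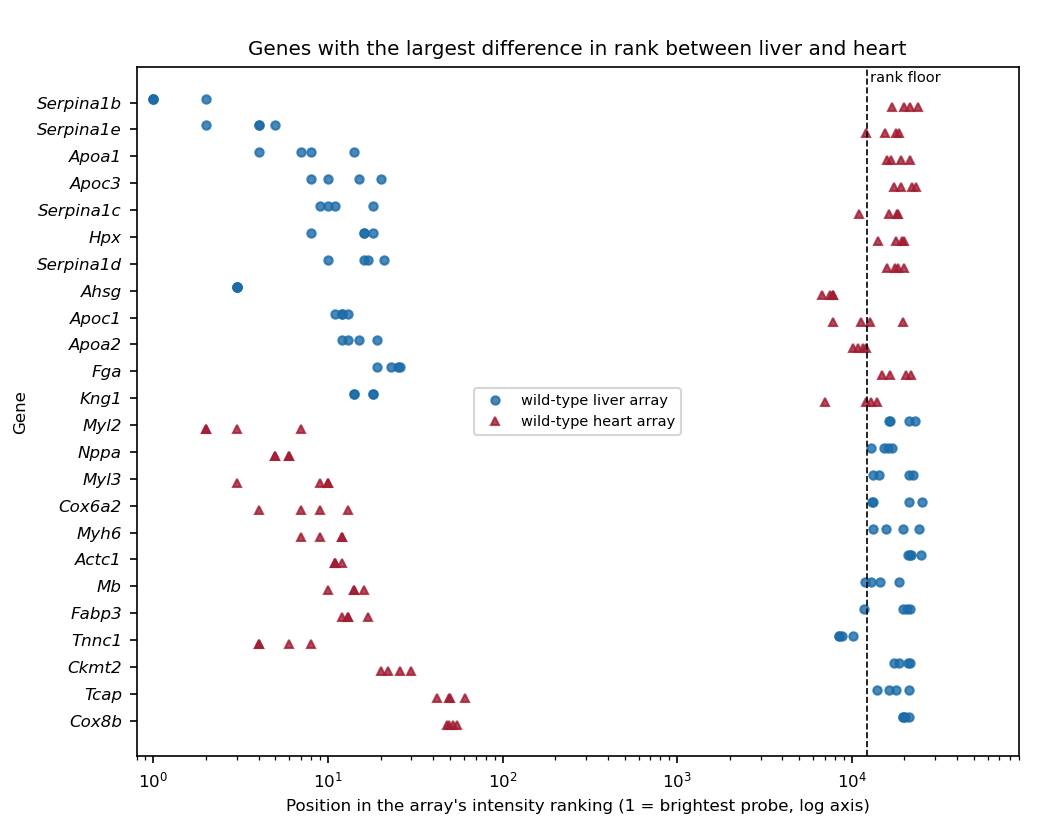
Position of each gene's probe in the intensity ranking of every array (horizontal log axis, 1 for the brightest of 25697 probes) for the 12 genes with the largest difference toward liver and the 12 toward heart, with 1 point per array and the rank floor at position 12146 as a dashed line. Each gene lies within the first 100 positions in one tissue, and the arrays of the other tissue lie at position 6738 or beyond.

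Promoters of these genes were searched for letters that liver and heart transcription factors are known to read, and some with a match within 100 bases of the start are shown, since they belong to the genes with the largest differences. HNF1 binds GTTAAT as the core of its site in liver promoters, and serum response factor binds the CArG box in muscle promoters. The sequences are RefSeq promoters of GRCm38.p6, the 100 bases before the start on the gene's own strand, with the match in capitals. In Serpina1b the first capitals are the reverse complement of AAGTCCA, a core read by HNF4, and the second are the HNF1 core. In Fga the HNF1 core is on the opposite strand. The HNF1 core lay 26 to 21 bases before the start in Serpina1b, 27 to 22 in Serpina1c, 16 to 11 in Serpina1d and 78 to 73 in Serpina1e. The 4 windows of 100 bases share a stretch of 38 bases, so only the first and the last are printed. The ends of the windows set the length of that stretch.
Serpina1b, chr12:103738190-103738289, minus strand: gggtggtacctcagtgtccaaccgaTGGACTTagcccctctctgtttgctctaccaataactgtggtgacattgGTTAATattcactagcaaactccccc
Serpina1e, chr12:103956898-103956997, minus strand: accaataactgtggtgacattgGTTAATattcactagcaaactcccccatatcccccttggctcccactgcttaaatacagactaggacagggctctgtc
Fga, chr3:83026053-83026152, plus strand: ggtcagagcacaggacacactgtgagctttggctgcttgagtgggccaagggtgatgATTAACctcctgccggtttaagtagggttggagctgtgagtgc
Actc1, chr2:114052876-114052975, minus strand: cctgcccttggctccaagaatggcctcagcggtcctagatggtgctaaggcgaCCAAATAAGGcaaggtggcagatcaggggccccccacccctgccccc
Myl3, chr9:110763578-110763677, plus strand: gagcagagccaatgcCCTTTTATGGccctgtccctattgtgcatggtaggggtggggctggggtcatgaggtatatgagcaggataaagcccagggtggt

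Over the 250 bases before the start, on both strands, the HNF1 core was in 71 of 786 promoters of genes higher in liver (9.03%) and in 30 of 900 of genes higher in heart (3.33%). It was in 4.46% of the promoters of all genes tested and in 6.52% of all 27025 promoters. Of the 12 genes with the largest liver difference 9 had a promoter entry, and 5 held the core, which were the 4 Serpina1 genes and Fga. The HNF4 core AAGTCCA was in 5.34% of promoters of genes higher in liver, 3.22% of those higher in heart and 3.14% of those tested. The CArG box was in 1.40% of promoters of genes higher in liver, 2.11% of those higher in heart and 1.26% of those tested, and the MEF2 site, in which part of the letters are free, in 1.40%, 3.00% and 2.00%. Among the 12 genes with the largest liver difference the CArG box was in 1 of 9 promoters, that of Hpx. Among the 12 with the largest heart difference it was in 2 of 10, Myl3 and Actc1, and the MEF2 site was in 0 of 10. A match is a run of letters and not a measured site. The shares were not tested, and the Serpina1 promoters count 4 times for what is a single duplicated sequence.

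Some transcripts were above background in one organ and on no array of the other. There were 223 such probes for liver (0.868% of all probes) and 2160 for heart (8.41%), or 0.844% and 8.27% of the named genes. Of the 223 liver probes 178 were also called toward liver, and of the 2160 heart probes only 320 were called toward heart. The imbalance between 223 and 2160 came with the larger share of probes above background on the heart arrays. When the same share of probes was taken on every array, the numbers were 809 for liver and 895 for heart. The brightest such genes in liver were Apoc3, the drug- and steroid-oxidising enzymes Cyp3a11 (positions 61, 40, 50 and 52), Cyp2c70 (78, 50, 62 and 67) and Cyp4a12a (100, 90, 100 and 80), Mug1 (62, 38, 60 and 47), a murine inhibitor of proteases, the major urinary protein gene Mup21 (77, 36, 38 and 25), the carboxylesterase gene Ces1c, and Apoc4. In heart they were Myl2, Nppa, Myl3, Cox6a2, Myh6, Actc1, Ckmt2 and Tcap.

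The plasma protein genes ranked higher in liver almost without exception. Of 21 measured genes, 20 were called toward liver and 0 toward heart, with a median difference of 2.29. Transferrin, Trf, was at positions 9, 6, 9 and 6 in the livers and at 2944, 2414, 3580 and 3569 in the hearts, so it was well above background in both (2.29 ± 0.0616). Haptoglobin, Hp, which binds free hemoglobin, was at 21, 17, 23 and 20 in the livers and at 2132, 2760, 6677 and 5952 in the hearts (2.17 ± 0.175). The exception was albumin. Its single probe was at 8042, 7977, 8134 and 7826 in the livers, and its difference of 0.424 ± 0.00742 was below the size limit although Alb was above background on no heart. The position of a single dim probe says nothing of how much albumin transcript the livers held.

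Clotting and complement genes followed the same pattern. Of 16 coagulation genes measured 15 ranked higher in liver, with a median of 2.10. Plasminogen, Plg, which becomes the enzyme that dissolves clots, was at 193, 164, 162 and 156 in the livers and above background on no heart (2.41 ± 0.0163). Factor IX, F9, the protein missing in haemophilia B, differed by 2.29 ± 0.0216. The remaining gene, Fgb, was above background on 1 liver and no heart and was not tested. That dim probe does not tell how much Fgb transcript the livers held. Of 15 complement genes 14 ranked higher in liver (median 1.81), led by C9 of the membrane attack complex (2.56 ± 0.0551) and Cfi, the protease that inactivates complement (2.30 ± 0.0339). All 12 apolipoprotein and lipoprotein genes measured ranked higher in liver (median 1.91). The smallest of these differences was that of Mttp, which loads lipid onto apolipoprotein B, at 0.782 ± 0.0631. Apoe, also known to be made by macrophages, was at 52, 42, 54 and 83 in the livers and at 2178, 2354, 2477 and 2196 in the hearts (1.51 ± 0.0466). All 3 major urinary protein genes measured, which carry pheromones in mouse urine, ranked higher in liver, Mup2 by 3.02 ± 0.0486.

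Nitrogen and amino acid metabolism ranked higher in liver as well. Of 8 urea cycle genes 7 were called toward liver and 0 toward heart (median 1.40). Cps1, which commits ammonia to the cycle, was at 124, 83, 122 and 102 in the livers and above background on no heart (2.57 ± 0.0303). Arg1, which releases urea, differed by 2.46 ± 0.0276. Ass1, which joins citrulline to aspartate, was at 89, 106, 92 and 93 in the livers and still above background in all 4 hearts, at 8734, 7946, 8298 and 7939. The mitochondrial carrier gene Slc25a13 had a difference of 0.486, just under the size limit. For enzymes of amino acid breakdown 14 of 16 were called toward liver (median 1.90), among them the methionine-cycle genes Gnmt (2.64 ± 0.0413) and Mat1a (2.60 ± 0.0587), Haao of tryptophan breakdown (2.38 ± 0.00996) and Hpd of tyrosine breakdown (2.24 ± 0.00550). Hpd was at 264, 280, 277 and 273 in the livers and above background on 1 of 4 hearts.

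Bile acid and drug metabolism gave differences of similar size. Of 13 bile acid genes 10 ranked higher in liver (median 1.68). Cyp8b1, which sets the share of cholic acid, was at 60, 69, 74 and 91 in the livers (2.69 ± 0.0284), and Slc27a5, which activates bile acids for conjugation, at 148, 145, 132 and 146 (2.47 ± 0.00917). Cyp7a1, the rate-limiting enzyme of bile acid synthesis, varied more among the livers, at 1977, 3513, 1166 and 868, and was above background on no heart (1.44 ± 0.153). The bile acid uptake carrier Slc10a1 had a difference of 0.455 ± 0.00570 and did not reach the size limit. Among cytochrome P450 genes of drug and steroid metabolism 16 of 17 ranked higher in liver (median 2.28), and Cyp2b10 was the exception (0.404). Cyp2f2, also known from airway cells, was at 10746, 3455, 13416 and 14737 in the hearts, with heart 2 apart from the rest. Of 13 conjugation enzymes 12 ranked higher in liver (median 1.34). Gstp1, a glutathione transferase, was bright in both organs, at 17, 4, 8 and 11 in the livers and at 832, 799, 674 and 691 in the hearts (1.51 ± 0.0855).

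Lipid synthesis and the peroxisome also leaned to liver. Of 9 cholesterol synthesis genes 8 were called toward liver and 0 toward heart (median 1.07). Hmgcs1, the cytosolic synthase at the head of the pathway, was at 65, 113, 52 and 59 in the livers and at 1094, 1160, 1201 and 996 in the hearts (1.07 ± 0.0567). Sqle, which begins the sterol part of the pathway, differed by 1.34 ± 0.0754, and Fdps, which makes farnesyl diphosphate, by 1.25 ± 0.0609. Of 12 peroxisomal genes 10 were called toward liver (median 1.14), and 9 without wild-type heart 4. Acaa1b, a thiolase, was at 42, 63, 39 and 39 in the livers (2.70 ± 0.0946), and Uox, the urate oxidase that is active in mice, at 188, 194, 145 and 218 (2.38 ± 0.0294). Catalase, Cat, was at 253, 269, 325 and 770 in the livers and at 1069, 986, 1394 and 2656 in the hearts, so that its lowest liver array stood only a little above its highest heart (0.598 ± 0.148), and the difference was 0.488 and not called without heart 4.

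Gluconeogenic genes were split. Of 8 measured, 5 ranked higher in liver: Fbp1, Slc2a2, Gckr, Pcx and Pck1. Slc2a2, the low-affinity glucose transporter, was at 1205, 1463, 1311 and 945 in the livers (1.60 ± 0.0420), and Gckr was above background on no heart (1.45 ± 0.0312). The cytosolic PEP carboxykinase gene Pck1 was close to the size limit, at 0.514 ± 0.0518, and was not called without liver 2 (0.474) or liver 4 (0.498). The genes not called were Slc37a4, Ppp1r3b and Ppp1r3c, the last 2 of which encode glycogen-targeting subunits of protein phosphatase 1.

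Liver transcription factors also leaned to liver. Their median position was 4020 in the livers and 16620 in the hearts, beyond the floor. The size of such a difference is limited by the rank of the probe in liver, so it was not compared with that of the secreted products. Of 14 measured, 11 were called toward liver and 0 toward heart, with a median of 0.909, and 10 without wild-type heart 4. Foxa3, a forkhead factor, was at 500, 367, 493 and 595 in the livers (2.01 ± 0.0388). Nr1h4, the bile acid receptor FXR, was at 670, 734, 563 and 559 (1.86 ± 0.0370), and Hnf4a at 813, 745, 671 and 907 (1.67 ± 0.0547). Creb3l3, a membrane-bound factor of the fasting response, differed by 1.46 ± 0.0208. Ppara, the fatty acid receptor, was above background in all 8 arrays and differed by 0.509 ± 0.0279, which was 0.494 without liver 2 and 0.499 without heart 3 or heart 4, and then not called.

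For the contractile apparatus of heart the calls ran the other way. Of 10 thick filament genes 9 ranked higher in heart and 0 in liver (median -2.63). Titin, Ttn, the spring of the sarcomere, was at 65, 60, 56 and 76 in the hearts (-2.69 ± 0.0539), and cardiac myosin-binding protein C, Mybpc3, at 102, 115, 108 and 96 (-2.57 ± 0.0148). Myh7, the slow myosin heavy chain, was at 4590, 6208, 4462 and 4599 in the hearts and above background on no liver (-0.802 ± 0.0537). Of 8 thin filament genes 5 ranked higher in heart (median -1.90). Cardiac troponin I, Tnni3, was at 624, 687, 613 and 481 (-1.92 ± 0.0303), and skeletal actin, Acta1, at 484, 322, 443 and 659 (-2.03 ± 0.0570). Tropomyosin 1, Tpm1, was above background in every liver and its difference of -0.317 did not reach the limit. All 13 Z-disc and costamere genes measured ranked higher in heart (median -1.81), among them the actin crosslinker Actn2 at 56, 65, 66 and 54 (-2.76 ± 0.0159), the stress-responsive Ankrd1 at 97, 95, 110 and 88 (-2.60 ± 0.0151) and the calcineurin-binding Myoz2 at 153, 149, 149 and 146 (-2.46 ± 0.00441).

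Calcium handling was less uniform. Of 16 genes 7 ranked higher in heart and 0 in liver (median -0.417). The calcium pump of the sarcoplasmic reticulum, Atp2a2, was at 8, 7, 9 and 5 in the hearts and at 1754, 1579, 1618 and 1195 in the livers, where it is known as a general pump of the endoplasmic reticulum (-1.91 ± 0.0521). Its inhibitors lay beyond the floor in all 4 livers: phospholamban, Pln, was at 523, 530, 474 and 601 in the hearts (-1.97 ± 0.0194), and sarcolipin, Sln, at 117, 118, 145 and 130 (-2.51 ± 0.0168). The calcium stores Hrc and Casq2 differed by -2.56 ± 0.0574 and -1.99 ± 0.00914, and the sodium-calcium exchanger Slc8a1 by -1.51 ± 0.0238. Of the channel genes, Cacnb2, an accessory subunit of the entry channel, was called toward heart (-0.641), while Cacna2d1, Ryr2 and Cacna1c were not. Ryr2, the release channel, was at 8743, 8136, 7648 and 10089 in the hearts and beyond the floor in the livers (-0.355 ± 0.0530), and Cacna1c, the entry channel, was at 10904, 13060, 11443 and 18428 in the hearts (-0.0478 ± 0.0283).

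Of 11 cardiac ion channel genes 7 ranked higher in heart (median -0.652), led by the potassium channel Kcnh2 at 2455, 2463, 2204 and 2451 (-1.25 ± 0.0146) and the sodium channel subunit Scn4b at 1887, 2972, 2230 and 3572 (-1.21 ± 0.0777). At the intercalated disc 1 of 8 genes was called. That was Gja1, the main connexin of ventricular gap junctions, at 145, 140, 139 and 166 in the hearts and at 4273, 4908, 4452 and 4527 in the livers (-1.60 ± 0.0236). The desmosomal gene Pkp2 differed by -0.464 ± 0.0156 on its brightest probe and was called toward heart on 2 of its 3 probes. Gja5, an atrial connexin, differed by -0.478 and was called toward heart on 1 of its 3 probes.

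Hormone genes of the heart and genes of the atrium were called in 6 of 7 cases (median -2.24). Beside Nppa, the brain natriuretic peptide gene Nppb was at 252, 317, 612 and 374 (-2.12 ± 0.0713) and Corin, the protease that activates the atrial peptide, at 379, 278, 339 and 401 (-2.14 ± 0.0299). The atrial myosin light chains Myl4 and Myl7 were at 20, 20, 35 and 42 and at 224, 238, 310 and 305. All 4 hearts thus carried atrial transcripts beside ventricular Myl2. Bmp10, an atrial growth factor, was near the floor (-0.0802).

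Cardiac transcription factors were called toward heart in 9 of 17 cases and toward liver in 0 (median -0.551). Popdc2, a membrane protein of conducting tissue that was placed with them, was at 394, 318, 317 and 381 (-2.14 ± 0.0217). Myocd, the coactivator of serum response factor, differed by -1.20 ± 0.0577, the orphan receptor Esrrb by -1.08 ± 0.0764, and the homeobox factor Nkx2-5 by -0.990 ± 0.0274. The brightest probe of Myocd gave that value, and it was the 1 probe called of the 3 tested for the gene. Gata4 was at 8943, 8921, 8975 and 8765 in the hearts and beyond the floor in the livers, with a difference of -0.327 ± 0.00557 that was too small to be called.

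**Figure D3:**
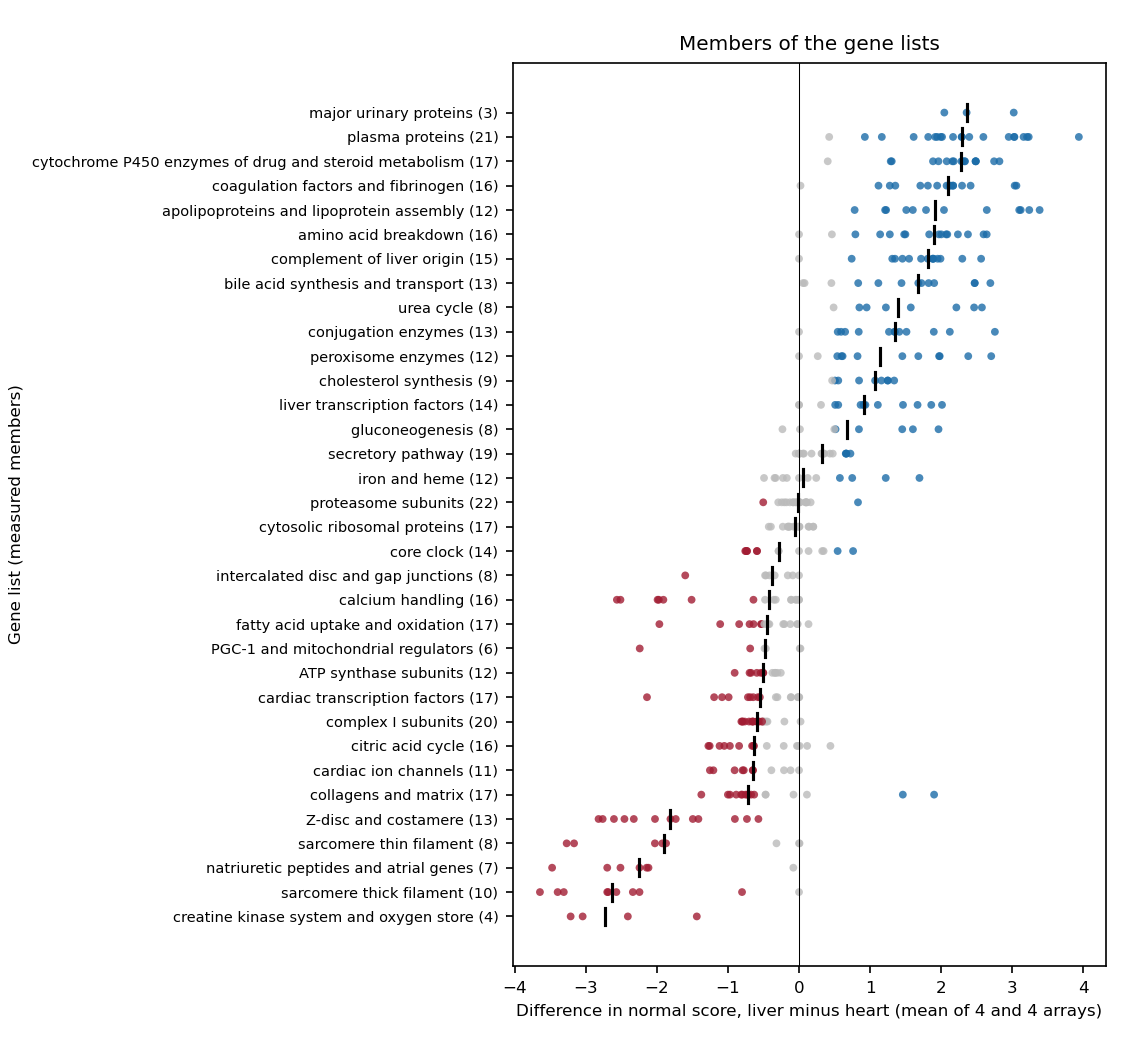
Difference in normal score, liver minus heart, of the measured members of each gene list (horizontal axis, score units; lists on the vertical axis with the number of measured members), with 1 point per gene, members called toward liver in blue, toward heart in red and not called in grey, and the median of each list as a black bar. Secreted proteins and liver enzymes lie to the right of 0, ribosomal and proteasome genes around 0, and sarcomere genes to the left.

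Fuel use separated the organs within pathways that both have. Oxct1, which lets a tissue burn ketone bodies and is known to be low in hepatocytes, was at 138, 152, 125 and 151 in the hearts and at 8532, 8954, 10908 and 9497 in the livers (-2.21 ± 0.0526, adjusted p = 5.90e-08). Of the 2 measured genes of ketone synthesis, Acat1 was not called (-0.116), and Bdh1 was not called on its brighter probe (0.324) but was called toward liver on its other probe. For fatty acid uptake and oxidation 7 of 17 genes ranked higher in heart and 0 in liver (median -0.454). Lipoprotein lipase, Lpl, which frees fatty acids in capillaries, was at 10, 8, 3 and 14 in the hearts and at 1492, 1391, 1874 and 2475 in the livers (-1.97 ± 0.111). The long-chain dehydrogenase Acadl differed by -0.842 ± 0.0309 and the medium-chain form Acadm by -0.535 ± 0.0359. Etfa, which passes electrons from these enzymes to the respiratory chain, was at 67, 75, 63 and 69 in the livers and at 46, 43, 45 and 53 in the hearts (-0.123 ± 0.0178).

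Mitochondrial genes ranked higher in heart by smaller steps. Of 16 citric acid cycle genes 9 were called toward heart and 0 toward liver (median -0.639). Citrate synthase, Cs, was at 200, 228, 184 and 209 in the hearts and at 2920, 3375, 3492 and 3005 in the livers (-1.26 ± 0.0296), and the isocitrate dehydrogenase subunit Idh3a at 470, 498, 449 and 487 against 5098, 5768, 5531 and 5088 (-1.28 ± 0.0234). Of 20 complex I genes 14 were called toward heart (median -0.585), among them Ndufa3 at 70, 73, 76 and 73 against 583, 714, 631 and 672 (-0.811 ± 0.0186). Of 12 ATP synthase genes 7 were called (median -0.504). The beta subunit gene Atp5b was at 2, 3, 2 and 4 in the hearts and at 30, 28, 27 and 24 in the livers (-0.675 ± 0.0488), so both organs held it among their brightest probes and the hearts still did not overlap with the livers. Perm1, a muscle regulator of mitochondrial genes, was at 254, 286, 262 and 276 in the hearts and above background on no liver (-2.24 ± 0.00995). Its partner factors differed less, Esrra by -0.687 ± 0.0237 and Ppargc1a by -0.467 ± 0.0486, the latter not called. All 4 genes of the creatine kinase system and oxygen store ranked higher in heart (median -2.73).

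Many steps of metabolism are served by a pair of genes, a general or liver form and a muscle form. In the 30 pairs read here the general or liver gene came first. The second gene was not a muscle form in every pair, as with Cox4i2 and Ampd3. Some pairs joined related functions rather than forms of the same step, as with Gamt and Ckm. Both genes were measured in 21 of the 30 pairs. In 7 pairs the first form was called toward liver and the second toward heart, and in 0 pairs the reverse held. For glucose entry Slc2a2 was called toward liver and the insulin-responsive Slc2a4 was at 883, 919, 774 and 900 in the hearts (-1.64 ± 0.0681). Of the glycogen phosphorylases Pygl was at 306, 372, 407 and 307 in the livers and at 3124, 4074, 6162 and 5846 in the hearts (1.31 ± 0.106), and Pygm was at 1879, 1958, 1536 and 1783 in the hearts (-1.41 ± 0.0261). The fructose bisphosphatase genes were Fbp1 (1.96 ± 0.0425) and Fbp2 (-1.23 ± 0.0469). The pyruvate kinase genes were Pklr (0.636 ± 0.0409) and Pkm (-1.78 ± 0.0262), the fatty acid transporters Slc27a2 (2.20 ± 0.0436) and Slc27a1 (-1.11 ± 0.0610), and the adenylosuccinate synthases Adss (0.620 ± 0.0245) and Adssl1 (-0.771 ± 0.0132). The last such pair joined Gamt, which makes creatine (1.26 ± 0.0315), with Ckm, which charges it and was at 165, 171, 172 and 175 in the hearts (-2.41 ± 0.00517).

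In another 7 pairs the second form was called toward heart while the first did not differ enough to be called. Cytochrome oxidase gave 3 of them. Cox8a was at 274, 308, 287 and 359 in the livers and at 299, 314, 350 and 369 in the hearts (0.0320 ± 0.0282, adjusted p = 0.394), while its muscle form Cox8b was at 52, 49, 55 and 48 in the hearts and at 21301, 19710, 20174 and 19621 in the livers. Cox7a2 differed by -0.0741 ± 0.0287 and Cox7a1 by -2.68 ± 0.0272, and Cox6a1 by 0.468 ± 0.0392 and Cox6a2 by -3.38 ± 0.0669. The glycolytic pairs were Pgam1 (0.0915 ± 0.0390) with Pgam2 (-2.45 ± 0.0242) and Pfkl (-0.393 ± 0.0277) with Pfkm (-1.59 ± 0.0167). The phosphorylase kinase genes Phkg2 and Phkg1 and the connexin genes Gjb1 and Gja1 completed the group. Over all pairs the second form was called toward heart in 20 of 25 measured cases, and the first form toward liver in 9 of 25 and toward heart in 1, Cox4i1 (-0.679 ± 0.0374). The probes of the liver forms Cpt1a and Fabp1 were above background on no liver. As for Alb, such dim probes do not tell how much of these transcripts the livers held. Among second forms read on their own, Hk2, a hexokinase, differed by -2.15 ± 0.0604 and Aldoa, an aldolase, by -1.63 ± 0.0193, both toward heart.

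**Figure D4:**
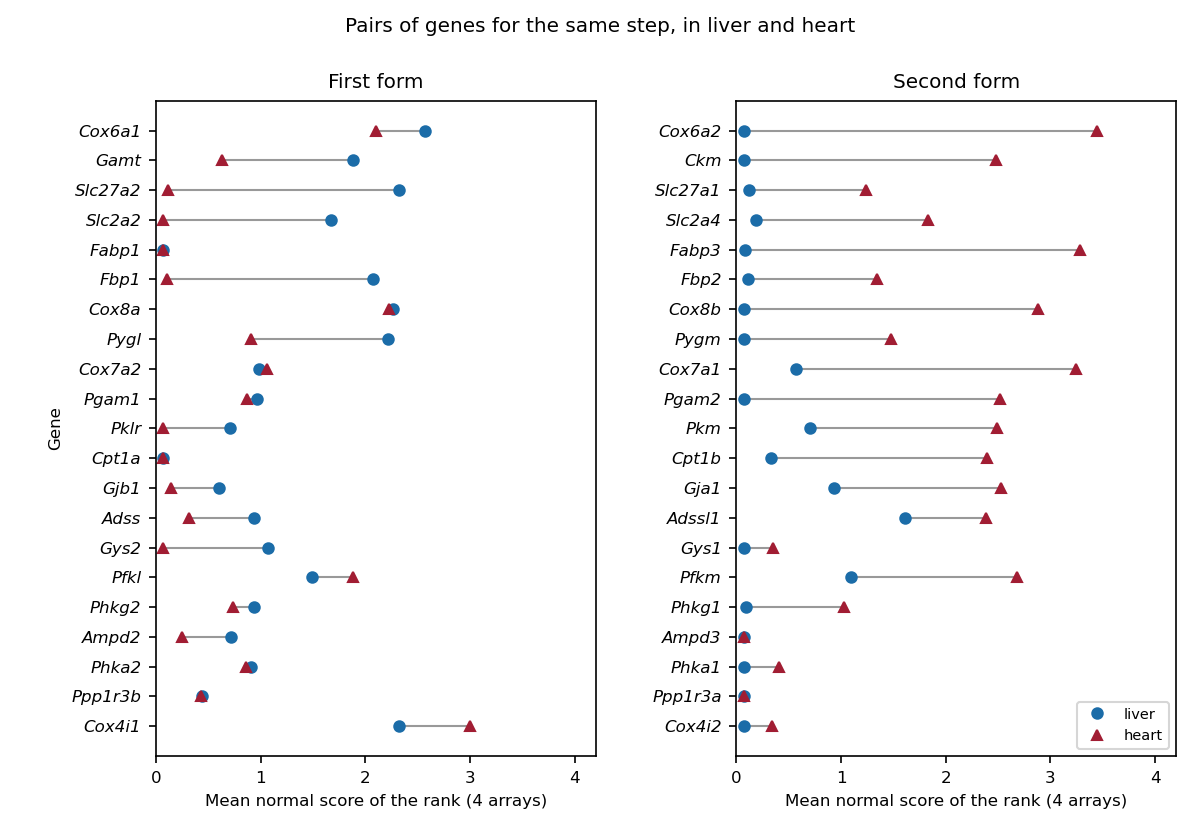
Mean normal score of the within-array rank (horizontal axes, score units) in liver (circles) and heart (triangles) for the 21 gene pairs with both genes measured, the first gene of each pair on the left and the second in the same row on the right, with a line joining the 2 tissue means of 4 arrays each. Second forms such as Cox6a2, Fabp3, Cox8b, Ckm and Pgam2 sit near the floor of 0.0686 in liver and far above it in heart, Ppp1r3a and Ampd3 sit at the floor in both, and first forms such as Cox8a and Cox7a2 sit at nearly the same score in both.

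Housekeeping genes held similar ranks. Of 17 measured cytosolic ribosomal protein genes 0 were called in either direction (limma; median -0.0530), although at the adjusted p alone some differed. Rplp1, of the ribosomal stalk, was at 34, 31, 36 and 33 in the livers and at 42, 28, 28 and 27 in the hearts (-0.0258 ± 0.0320, adjusted p = 0.533). Rps9 was the most distant, at -0.426 ± 0.0108 (adjusted p = 7.93e-08). Among 22 proteasome genes 1 was called toward liver, the beta subunit gene Psmb1 at 877, 948, 926 and 1057 against 4285, 4826, 3925 and 4382 (0.830 ± 0.0321), and 1 toward heart, Psmb5 (-0.504 ± 0.148), a call that was lost with the mouse as a block and without liver 2, liver 3 or any 1 of the hearts. Of the 100 brightest probes of each tissue 21 were shared, among them probes of Atp5b, the ferritin heavy chain gene Fth1, Gapdh, Got2, Hspa8 and Rplp1, and of the 1000 brightest 471 were shared. Among the 100 brightest liver probes 10 were above background on no heart, and among the 100 brightest heart probes 13 were above background on no liver.

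The secretory pathway, which exports plasma proteins, was only partly apart. Of 19 genes 4 ranked higher in liver and 0 in heart (median 0.324): the translocon genes Sec61b (0.663 ± 0.0307) and Sec61a1 (0.657 ± 0.0344) and the disulfide isomerase genes P4hb (0.723 ± 0.0339) and Pdia4 (0.668 ± 0.0356). Of 12 iron and heme genes 4 ranked higher in liver (median 0.0611), the iron sensor Tfr2 (1.69 ± 0.0217), the hormone hepcidin, Hamp (1.22 ± 0.104), the biliverdin reductase gene Blvrb (0.748 ± 0.0729) and the iron exporter Slc40a1 (0.575 ± 0.0483). Hamp was at 340, 172, 167 and 250 in the livers and at 3007, 2084, 3765 and 4096 in the hearts, and hepcidin is known to be made in heart too.

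Extracellular matrix genes were called in both directions. Of 17 measured, 11 ranked higher in heart and 2 in liver (median -0.713). The liver calls were Vtn, vitronectin of plasma, at 76, 58, 73 and 64 (1.90 ± 0.0203), and Col18a1, the source of endostatin, at 263, 225, 187 and 270 (1.46 ± 0.0366). The heart calls held basement membrane genes, with laminin Lamb2 at -1.37 ± 0.0578, Lama2, the muscle laminin, at -1.0 ± 0.0354 and collagen Col4a1 at -0.813 ± 0.0151. The fibrillar collagen gene Col1a1 was at 5010, 5462, 5027 and 5685 in the hearts and above background on no liver (-0.752 ± 0.0217).

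Clock genes differed between the organs of the wild-type mice, and most of these calls were not repeated in the mutant mice. Of 14 measured, 6 ranked higher in heart and 2 in liver (median -0.288). Arntl, the activator BMAL1, was at 4444, 4451, 6492 and 5127 in the livers and at 14047, 11350, 16619 and 16780 in the hearts (0.760 ± 0.0645). The repressor genes Per1 and Per2 went the other way, Per1 at 8450, 8706, 7401 and 6531 in the livers against 3065, 2285, 2291 and 2798 in the hearts (-0.756 ± 0.0670), and Per2 by -0.746 ± 0.0665. Dbp, an output of the clock, was at 3790, 3531, 1554 and 1257 in the livers and at 476, 469, 404 and 657 in the hearts (-0.733 ± 0.153). Livers 1 and 2 ranked Dbp lower than livers 3 and 4 and Arntl higher. The other heart calls were Ciart, Tef and Per3 and the other liver call was Nfil3, a repressor of the same outputs, which was not called without liver 1 (0.497). In the mutant mice only Per1 (-0.670) and Ciart (-0.557) were called among these 8 genes. The others had the same direction there and did not reach the size limit, with Arntl at 0.473, Nfil3 at 0.437, Per2 at -0.241, Dbp at -0.288, Tef at -0.163 and Per3 at -0.154. The time of day at which each organ was taken is not given in the labels, and its part in these values was not tested.

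Markers of other cell types were read for what else the samples held. Of 9 markers of liver sinusoidal endothelium 5 ranked higher in liver and 0 in heart, with Clec4g at 332, 386, 362 and 347 in the livers and at 10315, 10235, 9669 and 9795 in the hearts (1.92 ± 0.0197). Their summed intensity over background was between 2512.95 and 2931.86 on a liver and between 347.1 and 429.4 on a heart, on scales that are not shared. Of 7 Kupffer cell markers 1 was called, Clec4f, toward liver (1.12 ± 0.0767). Among 9 markers of heart endothelium 6 ranked higher in heart, led by Rgcc (-1.45 ± 0.0350) and Tcf15 (-1.08 ± 0.0379), among 7 of cardiac fibroblasts 5, led by Lum (-1.0 ± 0.0486), and among 5 of smooth muscle 3, led by Smtn (-1.50 ± 0.0125). Over background the fibroblast markers summed to between 7061.2 and 8552.35 on a heart and to between 817 and 1256.4 on a liver, and their part in the calls of matrix genes was not tested. The macrophage markers gave 1 call in 5, Lyz2 toward heart (-0.803 ± 0.0646). Stellate cell markers gave 1 call toward liver, Reln (0.798 ± 0.0372), and 2 toward heart, Des, which is also a cardiac muscle gene, and Rgs5, which was not called without liver 4 (-0.498). No marker was called among the 3 tested for T cells, 2 for B cells, 4 for cholangiocytes and 2 for lung, and none of the 4 kidney markers was bright enough to be tested. Of 5 pancreas markers 1 was called, Cela1, toward liver (1.42 ± 0.0410), with 0 called toward heart.

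Red cell transcripts ranked higher in heart. All 4 markers measured were called toward heart in the wild-type mice. In the mutant mice 2 of them, Hba-a1 and Slc4a1, were called, and Hbb-bt (-0.413, adjusted p = 0.249 by limma) and Alas2 (-0.101, adjusted p = 0.362 by limma) were not. Hba-a1, alpha globin, was at position 1 in every heart and at 99, 167, 82 and 108 in the livers (-1.43 ± 0.0493). Slc4a1, the anion exchanger of red cells, was at 1330, 591, 1625 and 363 in the hearts and at 12028, 18484, 12480 and 12589 in the livers (-1.77 ± 0.148). Alas2, of red-cell heme synthesis, was at 136, 89, 185 and 64 in the hearts and at 1103, 1113, 977 and 1020 in the livers (-0.889 ± 0.0768). Wild-type heart 4 had the highest rank of the hearts for Slc4a1, Alas2 and Hbb-bt, and all 4 genes were also called without it. The sum of the 4 probes over background was between 36897.2 and 73788.9 on a heart and between 4588.96 and 6792.53 on a liver. Of 5 neutrophil markers 2 were called toward heart, S100a8 and S100a9. S100a8 was at 3699, 1569, 4832 and 753 in the hearts, with heart 4 again the highest (-0.974 ± 0.238). Its call was lost with the mouse as a block. Retnlg was not called (-0.1755), Ngp lay beyond the floor in both tissues, and Camp was too dim to be tested. In the mutant mice S100a8 was called (-0.565) and S100a9 was not (-0.461). The 5 neutrophil markers summed to between 206 and 2037.62 over background on a heart and to between 2.48 and 20.1 on a liver. The part of blood left in the organs in these and other calls was not tested.

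Some fat and airway markers ranked higher in other hearts. Adipoq, adiponectin of fat cells, was at 2812 and 3160 in hearts 1 and 2 and at 9277 and 9385 in hearts 3 and 4, against 15635, 20454, 15476 and 11997 in the livers (-0.700 ± 0.232, adjusted p = 0.0372 by limma). That call was lost with the mouse as a block and without heart 1, heart 2 or any 1 of the livers, and Adipoq was not called in the mutant mice (-0.673). Lep, the fat hormone leptin, was at 3367 and 4048 in hearts 1 and 2 and at 9344 and 9482 in hearts 3 and 4. The livers had it at 8956, 8952, 8474 and 8441, ahead of hearts 3 and 4 (-0.287 ± 0.199, adjusted p = 0.275 by limma). Plin1, from the same list, was at 11812, 16739, 16355 and 24780 in the hearts and was not called. Retn was too dim to be tested. The 4 white fat markers summed to between 55.6 and 643 over background on a heart and to between 12.7 and 19.6 on a liver. Ucp1, the uncoupling protein of brown fat, was at 2532, 7656, 15382 and 15156 in the hearts. Scgb1a1, a secretoglobin of airway club cells, was at position 325 in heart 2 and at 9073, 20431 and 10025 in hearts 1, 3 and 4, while the lung markers Sftpc, Sftpb and Sftpa1 were above background on at most 1 array of either tissue. Its intensity was 3090 on heart 2 and between -1.52 and 29.1 on the other hearts, and the 5 lung markers summed to between 11.97 and 3121.88 over background on a heart. Hp ranked higher in hearts 1 and 2, and Cyp2f2 in heart 2, as given above, and the part of fat or airway tissue in those values was not tested.

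**Figure D5:**
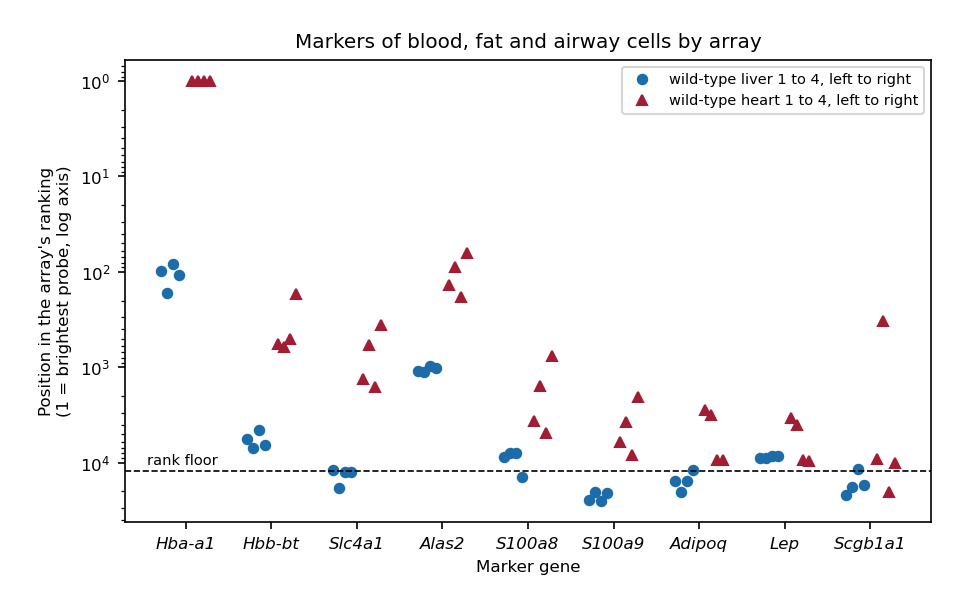
Position in the intensity ranking of each array (vertical log axis, 1 for the brightest of 25697 probes, brightest at the top) of marker genes of red cells, neutrophils, fat and airway, with livers 1 to 4 as circles and hearts 1 to 4 as triangles from left to right and the rank floor at position 12146 as a dashed line. Heart 4 is highest for Hbb-bt, Slc4a1 and S100a8, hearts 1 and 2 for Adipoq and Lep, and heart 2 for Scgb1a1.

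The comparison was repeated in the mutant mice, which were other animals. In 3 livers and 4 hearts 1297 of 16801 probes ranked higher in liver (7.72%) and 1490 higher in heart (8.87%). Of these, 1182 were also called toward liver in wild-type mice, which was 90.4% of the wild-type calls and 91.1% of the mutant calls. Toward heart 1296 were shared, 85.3% of the wild-type calls and 87.0% of the mutant calls. No wild-type call was called the opposite way in the mutants (0 of 2827), and the sign was the same for 1305 of 1308 liver calls and 1517 of 1519 heart calls. The difference in the mutants was 4.00 for Serpina1b, 2.95 for Ahsg, -3.55 for Myl2 and -3.57 for Nppa. It was 0.419 for Alb, which was again below the size limit. Among red cell genes it was -1.06 for Hba-a1 and -0.982 for Slc4a1, whereas Hbb-bt and Alas2 were not called in the mutants.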

How the data were processed

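The analysed values are the intensities of the deposited value table, 1 per probe and array, linear and already normalized by the authors with GenomeStudio 2011.1, per the submitters' processing notes. The normalization method is not given in the sources used here. From the values, each tissue was scaled apart and 27.7% to 27.8% of heart intensities lie below 0. A second table holds 15 columns whose names match no sample label, and these were not used. Of 25697 probes 23978 carry 1 gene symbol, 0 several and 1719 none in the platform annotation.

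Probes were ranked within each array, the ranks were tied below position 12146 and turned into normal scores, and liver minus heart was fitted with limma 3.58.1 in R 4.3.3. A probe was above background when it exceeded the mode of the array's low values at a one-sided p of 0.05, with the SD of the values below that mode. Probes above background on at least 3 arrays of either tissue were tested (16746). A call needed a Benjamini-Hochberg adjusted p under 0.05 and 0.5 score units. Each gene was read from the probe with the highest mean score over the 8 arrays. On simulated ranks with 200 changed probes, run on the probes of this comparison, 199 were called, and 0 of 16546 unchanged ones were. The planted changes were larger than the size limit and in brighter probes, and the rank floor was lower than that of the data. Recovery of differences near 0.5 score units, or of probes at the rank floor, was not tested. Other steps used Python 3.11.15.

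The members and lists were chosen with earlier results of these data known. Named genes are the 12 largest differences each way without overlap, the gene pairs, up to 4 members of each list by size of difference, and the 8 brightest genes confined to each tissue's arrays. Others were named after their values were seen, to complete a list or to show members that were not called. The labels give liver and heart of the same mouse the same number. Deviations from the tissue means of same-mouse arrays correlated at -0.037 to -0.000, so the mouse entered only as an alternative. Alternatives changed the scale, floor, filter, background threshold, size limit and arrays. Precision is limited by the 4 arrays in each tissue.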

Additional observations from a re-analysis of the deposited data

Results flagged for a closer look

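In a group of 4 arrays, an array was singled out when its gap to the nearest other, as a part of the group's range, exceeded Dixon's critical value for 4 samples. Of 286 groups checked 19 were singled out, and chance does this to about 1 in 20 groups. Each value below is the position of that array beside those of the other 3.

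Wild-type heart 4 stood apart for 5 genes. It had Hbb-bt at position 170 beside 567, 606 and 507, Myl3 at 3 beside 9, 10 and 10, Lamb2 at 1350 beside 1686, 1742 and 1682, Casq2 at 543 beside 500, 494 and 499, and Actc1 at 12 beside 11 in the rest. Heart 1 had Rplp1 at 42 beside 28, 28 and 27 and Cox7a1 at 14 beside 16 in the rest. Heart 2 had Myh7 at 6208 beside 4590, 4462 and 4599 and Psmb5 at 4827 beside 5443, 5477 and 5425. Heart 3 had Kcnh2 at 2204 beside 2455, 2463 and 2451 and Rps9 at 274 beside 282, 281 and 282.

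Among the livers, liver 2 had Acaa1b at 63 beside 42, 39 and 39, Hpx at 8 beside 18, 16 and 16, Col4a1 at 3632 beside 3905, 3885 and 3878, and Serpina1b at 2 beside 1 in the rest. Liver 3 had Acadl at 3775 beside 4389, 4495 and 4400 and Des at 9266 beside 6965, 7258 and 6898. Liver 4 had Apoc4 at 118 beside 80, 80 and 75 and Hk2 at 11559 beside 9235, 9248 and 9102.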

How the results depend on the processing

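Against 1308 probes called toward liver and 1519 toward heart, the counts were 2006 and 2266 on percentile ranks, 2159 and 2648 on quantile-normalized log2 values, 4289 and 5251 by the adjusted p alone, 569 and 367 at a difference of at least 1, and 1782 and 3160 with no floor on the ranks. The percentile ranks shared 1166 and 1280 of the calls. The part of calls toward liver was 36.1% with no floor and 60.8% at a difference of at least 1, against 46.3%. With the same share of probes on every array, 809 and 895 probes were confined to liver and to heart. Without 1 replicate the counts were 1309 to 1327 for liver and 1505 to 1537 for heart, and those confined to a tissue 229 to 288 and 2320 to 2653. With the mouse as a replicate block they were 1304 and 1514. Of 167 named genes called, 50 lost the call under at least 1 of 18 alternatives, and no named gene that was called reversed. Slc25a13, Slc37a4, Cox6a1 and Gjb1 were called toward liver when 1 or another array was left out, and Cacna2d1 toward heart. Over the lists 338 members were called, and 334 without heart 4, an alternative chosen after seeing the data. Dim probes, such as that of Alb, limit a difference at the rank floor.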

Other observations

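The spread of the scores among the 4 arrays of a tissue was small, with a median SD of 0.0499 in liver and 0.0396 in heart over the probes above background on all 8 arrays. Of 7 skeletal muscle markers, Myh4, Myh1 and Tnnt3 were too dim to be tested. Mylpf and Actn3 were above background on all 4 hearts and were not called (0.0384 and -0.0298), while Ckm and Acta1, which heart also expresses, were called toward heart. Elovl3, a fatty acid elongase used as a marker of brown fat, ranked higher in liver by 1.24 and was above background on no heart, whereas Cidea, a lipid droplet gene from the same list, ranked higher in heart by -1.55.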
